A study of Homo sapiens with 39 samples.

Results

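Glycolysis and the hypoxia response were followed through 40 genes in JJN3, an established line grown from a human multiple myeloma, a cancer of plasma cells. The genes were taken by symbol from the 57773 rows of the gene count table, and all 40 had a row. They comprised 17 enzymes of the glycolytic path from hexokinase to lactate dehydrogenase, called glycolytic enzymes here, and 23 other genes linked to the hypoxia-inducible factor HIF. The filter on low counts kept all 17 enzymes and 18 of the 23 other genes, so 35 were tested among 14460 genes. RNA-seq libraries came from cells at the start of the experiment (T0) and from cells kept with DMSO, the vehicle, with GSK-J4 or with ZnSO4. GSK-J4 is a cell-permeable ester of an inhibitor of the KDM6 histone demethylases, and ZnSO4 supplies zinc. Each agent was sampled at 1, 3, 6 and 24 h, which with T0 gave 13 groups of 3 libraries, 39 in all. The protocol text names 3, 6 and 24 h, while the labels of single libraries also give 1 h. All groups came from the same line, grown in RPMI medium with fetal calf serum, and no dose is given in the sources used here. Nothing in the labels says that libraries of a group came from separate cultures, so p-values here measure only how far these libraries differ, and that spread may be technical.

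Glycolysis turns glucose into pyruvate and lactate, and its enzymes are among the most abundant proteins of a dividing cell. HIF is a pair of proteins whose alpha subunit, such as the HIF1A product, is made continuously and marked for destruction when prolyl hydroxylases of the EGLN family modify it with oxygen, iron and 2-oxoglutarate. When hydroxylation slows, the alpha subunit accumulates, enters the nucleus and binds a short DNA core near genes for glucose uptake, glycolysis, vessel growth and mitochondrial turnover, so HIF activity is set largely at the level of protein, which RNA counts do not measure. Several of these genes, among them VEGFA, DDIT4 and the glucose transporter SLC2A1, are also known to respond to other stress pathways.

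Libraries held 4347745 to 10695671 counts assigned to genes, with a median of 6010529. At these depths, 3 counts correspond to 0.281 to 0.69 CPM (counts on the usual library-scaled unit), which is taken as the floor of detection and covers counting error only. Levels below are CPM scaled by the trimmed mean of M-values (TMM), and differences are log2 fold changes from edgeR's quasi-likelihood test with their standard error (SE). A gene was called when its p, adjusted over all 14460 genes by Benjamini and Hochberg's method, was under 0.05. For genes named by the rule given under processing, libraries without overlap were a condition of naming and not a further result. All 8 plasma cell markers checked were detected in every library, with a summed level of 1612 to 2427 CPM. None of the T cell, myeloid, erythroid or endothelial markers had a median above 1 CPM. Of 3 stromal markers, COL1A1 and COL3A1 were detected, and PDGFRB was listed at 0 to 1.06 CPM. Of 3 markers of earlier B cells, 2 had a median above 1 CPM, with a sum of 2.07 to 7.44 CPM over the libraries. At 24 h the sum of the 3 stromal markers was 10.3 to 37.6 CPM with DMSO, 27.2 to 34.5 with ZnSO4 and 32 to 54.9 with GSK-J4, and its part in the results at 24 h was not tested. MT1X, a metallothionein that zinc induces, averaged 7.11 to 10.3 CPM with DMSO at 1 to 6 h, 293 to 1287 with ZnSO4 and 53.2 to 759.7 with GSK-J4 at the same times. The first principal component, which held 54.4% of the variance, separated the libraries of 24 h from all the others.

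The windows upstream of 5 members are shown because results below turn on these genes, and because HIF binds DNA through the core ACGTG or GCGTG. Each line gives the 250 bases before the start of the RefSeq transcript (build GRCh38.p14), read 5′ to 3′ on the strand of the gene, with every match to either core on either strand in capitals. EGLN1, a HIF prolyl hydroxylase, lies at chr1:231422288-231422537 on the minus strand, with 1 match. P4HA2, a subunit of the collagen prolyl hydroxylase, lies at chr5:132227092-132227341 on the minus strand, with 0 matches. PFKFB4, which sets the level of the activator of phosphofructokinase, lies at chr3:48556804-48557053 on the minus strand, with 1 match. DDIT4, an inhibitor of growth signalling through mTORC1, lies at chr10:72273674-72273923 on the plus strand, with 3 matches. LDHA, which makes lactate from pyruvate, lies at chr11:18394313-18394562 on the plus strand, with 5 matches in the first of its windows. Its matches starting 185 and 184 bases before the start overlap, as do those at 87 and 86, because CACGTG holds the core on both strands. The matches therefore mark fewer separate sites than 5, and no more than in DDIT4.
EGLN1: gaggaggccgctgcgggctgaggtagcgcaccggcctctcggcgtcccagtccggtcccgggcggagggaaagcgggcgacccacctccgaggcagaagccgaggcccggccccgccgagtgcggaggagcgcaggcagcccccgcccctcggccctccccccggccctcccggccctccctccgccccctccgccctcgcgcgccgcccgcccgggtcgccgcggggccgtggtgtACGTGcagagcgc
P4HA2: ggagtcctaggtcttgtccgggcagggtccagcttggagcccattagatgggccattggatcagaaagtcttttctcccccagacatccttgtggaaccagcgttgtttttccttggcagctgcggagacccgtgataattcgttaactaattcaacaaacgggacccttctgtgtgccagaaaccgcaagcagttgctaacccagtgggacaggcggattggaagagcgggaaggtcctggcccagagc
PFKFB4: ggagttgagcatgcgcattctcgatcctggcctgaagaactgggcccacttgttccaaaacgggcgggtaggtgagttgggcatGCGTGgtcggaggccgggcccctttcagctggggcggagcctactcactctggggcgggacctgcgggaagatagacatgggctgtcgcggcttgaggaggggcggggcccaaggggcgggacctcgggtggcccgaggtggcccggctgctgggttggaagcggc
DDIT4: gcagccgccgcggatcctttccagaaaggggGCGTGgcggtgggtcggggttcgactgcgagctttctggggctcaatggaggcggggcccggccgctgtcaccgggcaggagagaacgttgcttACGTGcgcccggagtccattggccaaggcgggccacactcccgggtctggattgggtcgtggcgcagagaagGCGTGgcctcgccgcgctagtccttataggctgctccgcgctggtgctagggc
LDHA: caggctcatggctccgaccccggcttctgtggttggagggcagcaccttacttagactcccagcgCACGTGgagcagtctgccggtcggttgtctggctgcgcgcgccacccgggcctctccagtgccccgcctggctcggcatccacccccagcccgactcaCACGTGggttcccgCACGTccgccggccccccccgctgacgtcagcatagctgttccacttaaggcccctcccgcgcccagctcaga
RefSeq windows of 300 bases, which add the first 50 bases of the transcript, were given for 35 of the 40 members. The core was in 42 of their 62 windows (67.7%), against 48.4% of the 35116 windows of all genes. It was in 23 of 37 windows of the enzymes and in 19 of 25 windows of the other members. Genes with several transcript starts gave several windows, some of them overlapping, so the same bases can count more than once in these shares. The E-box CACGTG, a site of MYC and MAX that contains the core, was in 14.5% of member windows and 7.26% of all windows. The metal response core, TGCACNC or TGCGCNC, was in 38.7% and 29.6%. Of the 5 genes shown, EGLN1 had 3 matches to it in the 300 bases, DDIT4 2, LDHA 1 in its first window, and P4HA2 and PFKFB4 0. These are not marked in the lines above. The composite TGATGNAA of ATF4 was in 3.23% and 3.62%. These matches are descriptions of letters, not of binding. SLC2A3, SLC16A1, BNIP3L, VEGFA and NDRG1 had no entry in the sequences used.

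Levels at T0, as scaled CPM divided by exon length, were led by the enzymes. GAPDH, which oxidises glyceraldehyde 3-phosphate, stood highest with 1145 CPM per kb, followed by the enolase ENO1 with 556 and the aldolase ALDOA with 499.6. The next enzymes in that order were PKM with 306.3, LDHB with 291, TPI1 with 243, LDHA with 210.1 and PGK1 with 108 CPM per kb. SLC16A1, a lactate carrier, stood highest among the other members with 92.01 CPM per kb, against 3.102 for a second lactate carrier, SLC16A3. HK2 was the better represented hexokinase, with 16.1 CPM per kb against 2.03 for HK1. The lowest enzymes were ENO2 with 5.601 CPM per kb and HK1. At the low end of the tested members stood P4HA2 with 0.867, ANKRD37 with 0.495 and PFKFB4 with 0.363 CPM per kb. HIF1A lay in the middle with 17.04 CPM per kb.

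Several members often used as hypoxia reporters were near or below the floor in every group. The 5 members that failed the filter were EGLN3, BNIP3, SLC2A3, CA9 and ANGPTL4. EGLN3, a HIF prolyl hydroxylase, ranged from 0 to 1.12 CPM over the 39 libraries, with 0.921, 0.495 and 0.225 CPM in DMSO at 3 h, 0.6599, 0.329 and 0.123 in ZnSO4 and 0.362, 0.493 and 0.822 in GSK-J4. CA9, a carbonic anhydrase of the cell surface, had 0 counts in the 3 T0 libraries. It had 0.495, 0 and 0.123 CPM with ZnSO4 at 3 h, so no difference could be measured at this depth. Counts of BNIP3 and SLC2A3 may also be affected by near-identical pseudogenes, of which the table lists 42 and 3. Pseudogenes of TPI1 (4) and GAPDH (64) held counts equal to 9.87% and 3.68% of those of the genes themselves. The library kit as named does not show whether strand was kept, and SLC16A3, PFKM and ANKRD37 share exon bases with the opposite genes CSNK1D, SENP1 and UFSP2. UFSP2 shares 909 bases with ANKRD37 and held more counts, so values of these 3 members are uncertain.

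In vehicle alone, edgeR called members at 24 h and at no earlier time. At 1 h of DMSO against T0, edgeR called 0 members, with 7 at an unadjusted p under 0.05 and 0 by DESeq2, beside 0.0277% of all genes higher and 0.00692% lower. Without T0 replicate 2 it called HK2 (0.31, adjusted p = 0.04) and DDIT4 (−0.62, adjusted p = 0.045), and DDIT4 also without DMSO 1 h replicate 1 (−0.87, adjusted p = 0.0012). At 3 h it called 0, with 7 unadjusted and 3 by DESeq2, beside 0.0553% higher and 0.0415% lower. At that time HK2, ADM and DDIT4 were called without T0 replicate 1, HK2 and SLC16A1 without T0 replicate 2, and ADM without DMSO 3 h replicate 1. At 6 h it called 0, with 2 unadjusted and 0 by DESeq2, beside 0.00692% in each direction, and ADM without T0 replicate 1 (−0.31, adjusted p = 0.011). At 24 h, 19 members were higher than at T0 and 5 were lower, beside 30.5% and 32.7% of all genes. The enzymes contributed 10 higher and 2 lower, with a median log2 difference of 0.19 against −0.017 over all genes tested. The other members contributed 9 higher and 3 lower, with a median of 0.32, or 0.097 with library totals alone. These libraries are bulk RNA, in which fewer cells of a kind and less RNA per cell cannot be told apart.

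The members with the largest differences at 24 h of vehicle were picked after their values were seen. BHLHE40, a transcription factor of the hypoxia and circadian responses, had 26.01, 23.9 and 20.1 CPM at T0 and 117.3, 115 and 129 at 24 h (log2 fold change 2.35 ± 0.10, adjusted p = 1.7e-30). SLC2A1, the ubiquitous glucose transporter, had 35.5, 35.1 and 35.7 CPM at T0 and 179, 173 and 183 at 24 h (log2 fold change 2.33 ± 0.08, adjusted p = 8.6e-36). Both genes stood above T0 in every library of 24 h, with no overlap. NDRG1, a growth regulator induced by hypoxia, rose from 228, 261 and 273 to 1027, 993 and 1070 CPM (log2 fold change 2.02 ± 0.05, adjusted p = 4.7e-41). BNIP3L, a receptor that marks mitochondria for removal, rose from 34.6, 28.1 and 27.01 to 126, 117.2 and 115 CPM (log2 fold change 1.99 ± 0.08, adjusted p = 7e-32). ADM, the vasodilator peptide adrenomedullin, rose from 66.7, 78.2 and 78.7 to 266, 259 and 284 CPM (log2 fold change 1.86 ± 0.06, adjusted p = 2.9e-35). Each of these 3 genes was also separated from T0 in all 3 libraries.

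HIF1A itself rose over 24 h of vehicle, from 93.4, 95.7 and 74.3 CPM at T0 to 217, 229 and 208 (log2 fold change 1.30 ± 0.06, adjusted p = 3.7e-27). PDK1, which holds pyruvate back from the mitochondrion by phosphorylating pyruvate dehydrogenase, rose from 47.9, 44.03 and 53.03 to 71.02, 75.1 and 73.4 CPM (log2 fold change 0.61 ± 0.07, adjusted p = 1.2e-10). EGLN1 did not pass the test, with 48.2, 45.9 and 44.6 CPM at T0 and 45.1, 46.9 and 45.1 at 24 h (log2 fold change −0.02 ± 0.08, adjusted p = 0.85). The difference in EGLN1 was within the spread of its libraries. Against the rise of most called members, DDIT4 fell from 98.8, 73.6 and 70.8 CPM to 7.88, 5.81 and 8.76 (log2 fold change −3.46 ± 0.20, adjusted p = 8.7e-24). VEGFA, the main growth factor of blood vessels, fell by less, from 122, 142 and 123 to 103, 99.6 and 95.9 CPM (log2 fold change −0.37 ± 0.06, adjusted p = 6.1e-07). SLC16A3 and the phosphofructokinase PFKM were also lower (−1.65 ± 0.14, adjusted p = 4.3e-16; −0.26 ± 0.07, adjusted p = 0.00044).

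Among the enzymes at 24 h of vehicle, HK2, a hexokinase at the start of the path, had 102, 111 and 80.8 CPM at T0 and 186, 175 and 192 at 24 h (log2 fold change 0.90 ± 0.07, adjusted p = 1.3e-18). GAPDH rose from 3752, 3317 and 3172 to 5167, 5277 and 5462 CPM (log2 fold change 0.64 ± 0.05, adjusted p = 3.3e-19). LDHA rose from 1304, 1370 and 1240 to 1574, 1669 and 1701 CPM (log2 fold change 0.34 ± 0.05, adjusted p = 6.5e-09). None of these 3 enzymes overlapped between the groups. ENO2, the enolase best known from neurons, fell from 23.8, 28.2 and 19.9 to 14.5, 13.7 and 14.1 CPM (log2 fold change −0.79 ± 0.12, adjusted p = 1.3e-07). Scaling decided part of this comparison. With library totals alone the median of all genes moved to −0.24 and that of the enzymes to −0.034, and the calls over all genes went from 4406 higher and 4734 lower to 2769 and 6519. Under that scaling the enzymes gave 3 higher and 6 lower, and GPI, TPI1, PGK1 and PKM changed sign without being called. ALDOA, PGAM1 and ENO1 also lost their calls, while HK2, GAPDH and LDHA stayed higher. TPI1 also lost its call without T0 replicate 2 (from 0.12 to 0.083, adjusted p = 0.18) or DMSO 24 h replicate 3 (0.09, adjusted p = 0.15).

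**Figure D1:**
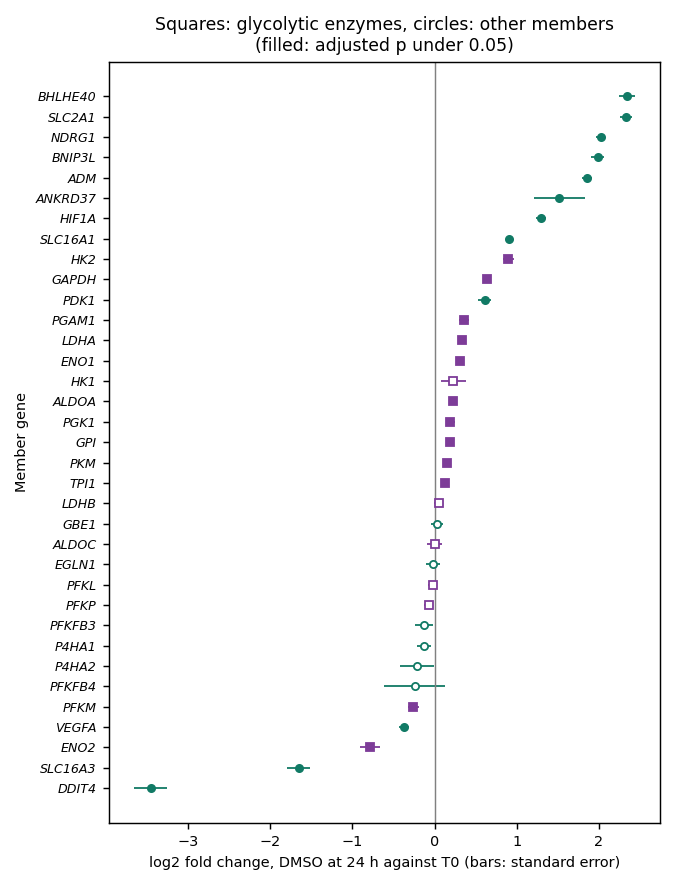
Log2 fold change of the 35 tested members in DMSO at 24 h against T0, with bars of 1 SE (squares, glycolytic enzymes; circles, other members; filled symbols, adjusted p under 0.05). BHLHE40 lies highest at 2.35 and DDIT4 lowest at −3.46, and most enzymes lie within 0.4 of 0.

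ZnSO4 raised the HIF-linked members early, and at 3 h every member it changed was higher. At 1 h edgeR called 2 members, both raised, beside 0.498% of all genes higher and 0.18% lower. At 3 h there were 18, all raised, beside 6.59% and 4.16%. Of these, 13 were among the 18 other members and 5 among the 17 enzymes, with medians of 0.67 and 0.12 against 0.002 over all genes tested. At an unadjusted p under 0.05 there were 21 members at 3 h, and DESeq2 called 17, all higher. At 6 h ZnSO4 raised 14 and lowered 3, beside 4.81% and 4.51%, and at 24 h it raised 7 and lowered 5, beside 3.98% and 5.58%. Leaving out each library in turn kept 14 of the 18 calls at 3 h, 11 of 17 at 6 h and 8 of 12 at 24 h.

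Among the HIF regulators, EGLN1 responded to ZnSO4 and HIF1A was not called. EGLN1 had 51.3, 45.8 and 44.9 CPM with DMSO at 3 h and 100.1, 101 and 107 with ZnSO4 (log2 fold change 1.11 ± 0.07, adjusted p = 2.3e-19). It stayed higher at 6 h, with 51.2, 51.1 and 48.4 against 74.6, 92.02 and 86.4 CPM (log2 fold change 0.74 ± 0.08, adjusted p = 2e-11). At both times every ZnSO4 library was above every DMSO library. At 24 h the levels were 45.1, 46.9 and 45.1 and 49.3, 54.2 and 50.5 CPM, and the difference did not pass the test (log2 fold change 0.17 ± 0.08, adjusted p = 0.21). HIF1A passed the test at no time with ZnSO4. At 3 h it had 99.5, 97.8 and 96.1 CPM with DMSO and 107, 101 and 111 with ZnSO4 (log2 fold change 0.12 ± 0.07, adjusted p = 0.34). At 24 h its ZnSO4 libraries lay above DMSO without passing the test (log2 fold change 0.17 ± 0.06, adjusted p = 0.068), but the call was made with library totals alone (0.19), with only the groups compared (0.18) and without ZnSO4 24 h replicate 3 (0.20).

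P4HA2 belongs with P4HA1 to the enzymes that hydroxylate proline in collagen, which use oxygen, iron and 2-oxoglutarate as EGLN1 does. At 3 h P4HA2 had 5.22, 6.92 and 7.41 CPM with DMSO and 19.8, 16.7 and 22.3 with ZnSO4 (log2 fold change 1.60 ± 0.18, adjusted p = 9.8e-11). At 6 h the values were 7.497, 6.71 and 7.75 and 17.8, 25.2 and 28.2 CPM (log2 fold change 1.69 ± 0.17, adjusted p = 9e-12), and at 24 h 5.57, 6.85 and 6.26 and 11.01, 16.5 and 18.4 CPM (log2 fold change 1.31 ± 0.19, adjusted p = 8.4e-07). P4HA2 was separated from DMSO at all of these times, which was a condition of naming it. P4HA1, which is more abundant, rose by less at 3 h (0.45 ± 0.08, adjusted p = 3.7e-05) and 6 h (0.40 ± 0.09, adjusted p = 7e-04).

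The bifunctional enzymes that make and degrade that activator also rose. PFKFB4 had 3.84, 2.64 and 2.92 CPM with DMSO at 3 h and 7.92, 6.14 and 8.52 with ZnSO4 (log2 fold change 1.23 ± 0.27, adjusted p = 0.00066). The 6 h values were 3.09, 2.24 and 3.798 and 7.05, 10.2 and 9.34 CPM (log2 fold change 1.52 ± 0.27, adjusted p = 4.1e-05). The libraries did not overlap at either time, a condition of naming PFKFB4, although the gene is lowly expressed. PFKFB3 rose at 3 h (0.96 ± 0.09, adjusted p = 1.8e-12) and was not called at 6 h (0.27 ± 0.10, adjusted p = 0.085). PDK1 had 49.3, 50.3 and 49.6 CPM with DMSO and 71.6, 72.6 and 76.04 with ZnSO4 at 3 h (log2 fold change 0.56 ± 0.08, adjusted p = 3.2e-08), again without overlap. Its smaller difference at 6 h (log2 fold change 0.31 ± 0.08, adjusted p = 0.0062) lost the call without ZnSO4 6 h replicate 2 (0.25, adjusted p = 0.066).

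The transporter SLC2A1 was called with ZnSO4 at 3 h and at no other time, from 39.01, 37.4 and 37.7 to 60.5, 55.8 and 59.6 CPM (log2 fold change 0.62 ± 0.09, adjusted p = 1.1e-07). By 6 h it stood at 33.96, 35.1 and 45.3 CPM with DMSO and 32.6, 39.8 and 39.2 with ZnSO4 (log2 fold change −0.04 ± 0.10, adjusted p = 0.87), and these groups overlapped. The mitophagy receptor BNIP3L rose at 3 h (0.72 ± 0.09, adjusted p = 1.6e-09) and at 6 h, from 33.7, 36.7 and 30.9 to 57.8, 56.4 and 60.8 CPM (log2 fold change 0.80 ± 0.09, adjusted p = 1.3e-10). It remained higher at 24 h by a smaller amount (0.27 ± 0.07, adjusted p = 0.004). GBE1, the glycogen branching enzyme, was higher at 6 h (0.34 ± 0.08, adjusted p = 0.0013).

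Among the secreted factors and growth regulators, ADM and DDIT4 responded first. ADM was one of the 2 members raised at 1 h, from 69.99, 67.03 and 67.6 CPM with DMSO to 109, 115 and 114 with ZnSO4 (log2 fold change 0.72 ± 0.07, adjusted p = 1.3e-12). DDIT4 was the other, from 76, 43.3 and 46.04 to 159.7, 169.5 and 205 CPM (log2 fold change 1.68 ± 0.13, adjusted p = 5.4e-16), and for both genes the libraries were separated. ADM was also higher at 3 h (0.94 ± 0.07, adjusted p = 2.8e-17), was not called at 6 h (0.10 ± 0.08, adjusted p = 0.49) and was called higher at 24 h (0.32 ± 0.06, adjusted p = 4.3e-05). At 3 h DDIT4 had 104, 95.3 and 96.98 CPM with DMSO and 335, 359 and 381 with ZnSO4 (log2 fold change 1.86 ± 0.12, adjusted p = 2.9e-20). At 6 h it was not called, with 96.9, 106 and 51.1 against 88.8, 77.6 and 66.6 CPM (log2 fold change −0.12 ± 0.14, adjusted p = 0.67). Without DMSO 6 h replicate 3, the lowest DMSO library, DDIT4 was called lower with ZnSO4 at 6 h (−0.39, adjusted p = 0.037). At 24 h DDIT4 was again higher, at much lower levels of 7.88, 5.81 and 8.76 and 13.5, 13.8 and 14.2 CPM (log2 fold change 0.90 ± 0.30, adjusted p = 0.044). That call was lost in 5 of the 6 fits that left out 1 library, without DMSO 24 h replicate 1 or 2 or ZnSO4 24 h replicate 1, 2 or 3 (0.74 to 0.94, adjusted p 0.078 to 0.18).

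VEGFA was called with ZnSO4 at 3 h alone. It had 132, 125 and 142 CPM with DMSO and 255, 249 and 261 with ZnSO4 at 3 h (log2 fold change 0.94 ± 0.06, adjusted p = 2.4e-20), with every ZnSO4 library above DMSO. By 6 h it had 145, 146 and 125 and 158, 137 and 149.5 CPM (log2 fold change 0.10 ± 0.06, adjusted p = 0.37), and at 24 h 103, 99.6 and 95.9 and 101, 99.7 and 102 (log2 fold change 0.01 ± 0.07, adjusted p = 0.95). Both later pairs of groups overlapped. BHLHE40 rose at 3 h (0.62 ± 0.12, adjusted p = 4.8e-05) and NDRG1 at 6 h (0.30 ± 0.06, adjusted p = 7.4e-05). ANKRD37, a small ankyrin protein known as a HIF target, had 2.85, 3.88 and 4.23 CPM with DMSO and 1.25, 1.17 and 1.18 with ZnSO4 at 24 h (log2 fold change −1.59 ± 0.35, adjusted p = 0.001). Its levels are close to the floor. The call made for ANKRD37 at 3 h (0.84 ± 0.28, adjusted p = 0.039) was lost without DMSO 3 h replicate 1, 2 or 3 or ZnSO4 3 h replicate 1, 2 or 3 (0.74 to 0.94, adjusted p 0.055 to 0.18).

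**Figure D2:**
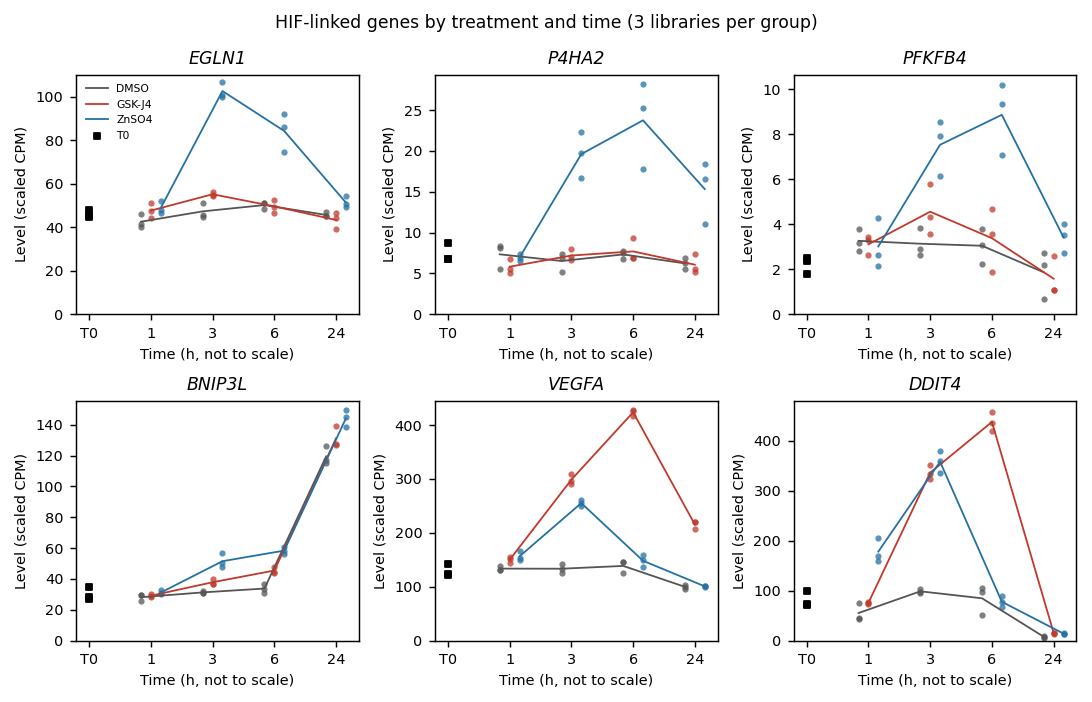
Scaled CPM of EGLN1, P4HA2, PFKFB4, BNIP3L, VEGFA and DDIT4 in each library against time (black squares, T0; other symbols, the 3 agents). P4HA2 stays high with ZnSO4 through 24 h, while VEGFA and DDIT4 peak at 3 h with ZnSO4 and at 6 h with GSK-J4.

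The glycolytic enzymes responded to ZnSO4 by small amounts. Among the enzymes ENO2 had the largest rise, from 24.99, 20.7 and 22.6 CPM with DMSO at 6 h to 39.7, 37.8 and 40.7 with ZnSO4 (log2 fold change 0.79 ± 0.11, adjusted p = 3.3e-07), with no overlap. At 3 h it had 25.3, 24.4 and 18.9 and 30.4, 31.7 and 28.4 CPM (log2 fold change 0.38 ± 0.11, adjusted p = 0.017), a call that was lost without DMSO 3 h replicate 3 (0.28, adjusted p = 0.17) or ZnSO4 3 h replicate 2 (0.34, adjusted p = 0.095). GAPDH rose at 3 h from 3396, 3404 and 3498 to 3742, 4114 and 3931 CPM (log2 fold change 0.20 ± 0.05, adjusted p = 0.0015) and at 6 h from 3628, 3618 and 3388 to 4083, 4479 and 4152 (log2 fold change 0.26 ± 0.05, adjusted p = 3.8e-05). In both cases the ZnSO4 libraries were all above DMSO, and separation was a condition of naming GAPDH. PGAM1, the phosphoglycerate mutase, rose at 3 h from 84.6, 89.4 and 85.5 to 105, 105 and 99.99 CPM (log2 fold change 0.26 ± 0.07, adjusted p = 0.0043). For PGAM1 at 6 h (0.22 ± 0.07, adjusted p = 0.023), significance was lost without DMSO 6 h replicate 3 or ZnSO4 6 h replicate 2 or 3 (0.19, adjusted p 0.11 to 0.14). ALDOA and PKM were called at 3 h, 6 h and 24 h, with differences of 0.13 to 0.20. Their calls at 3 h were lost without ZnSO4 3 h replicate 2 (0.11, adjusted p = 0.096, and 0.12, adjusted p = 0.061).

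LDHA with ZnSO4 was at the edge of the test. At 3 h it had 1290, 1355 and 1320 CPM with DMSO and 1419, 1515 and 1372 with ZnSO4 (log2 fold change 0.12 ± 0.05, adjusted p = 0.1). Its 6 h values were 1190, 1221 and 1349 and 1325, 1438 and 1383 CPM (log2 fold change 0.14 ± 0.05, adjusted p = 0.048), with overlapping libraries. At 6 h the adjusted p was 0.076 with DESeq2's size factors in edgeR, 0.53 with no filter on low counts, 0.054 with DESeq2 and 0.14 with only the groups compared. The leave-one-out fits also lost the LDHA call without DMSO 6 h replicate 1 or 2 or ZnSO4 6 h replicate 2 or 3 (0.10 to 0.14, adjusted p 0.13 to 0.27).

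HK2 was lower with ZnSO4 at the later times, while GAPDH, ALDOA and PKM were higher. It did not pass at 3 h (0.08 ± 0.07, adjusted p = 0.54), and was lower at 6 h, with 102, 108 and 116.9 CPM in DMSO and 96.2, 89.1 and 88.4 in ZnSO4 (log2 fold change −0.26 ± 0.07, adjusted p = 0.015). That call was lost without DMSO 6 h replicate 3 or ZnSO4 6 h replicate 2 or 3 (−0.24 to −0.21, adjusted p 0.053 to 0.12). HK2 traps glucose in the cell as its phosphate, and PFKM acts further down the same path. PFKM and the lactate carrier SLC16A1 were the other 2 members lower at 6 h (−0.28 ± 0.07, adjusted p = 0.0031; −0.16 ± 0.05, adjusted p = 0.028). PFKM lost its call without DMSO 6 h replicate 3 or ZnSO4 6 h replicate 3 (−0.22 to −0.21, adjusted p 0.063 to 0.065), and SLC16A1 without DMSO 6 h replicate 2 or 3 or ZnSO4 6 h replicate 1 or 2 (−0.16 to −0.12, adjusted p 0.061 to 0.19). At 24 h HK2 was lower without loss in any such fit, with 186, 175 and 192 and 146, 128 and 147 CPM (log2 fold change −0.40 ± 0.07, adjusted p = 1.9e-05). The phosphofructokinases PFKP and PFKM were lower at 24 h as well. PFKP had 165, 160.1 and 169 CPM with DMSO and 142, 131 and 132 with ZnSO4 (log2 fold change −0.29 ± 0.06, adjusted p = 0.00055). PFKM had 107, 102 and 112 and 94.3, 86.5 and 85.5 CPM (log2 fold change −0.27 ± 0.07, adjusted p = 0.0073), and its call was lost without ZnSO4 24 h replicate 2 (−0.25, adjusted p = 0.056). GAPDH and ALDOA were higher at 24 h by 0.14 and 0.13. GAPDH lost that call without DMSO 24 h replicate 1 or 2 or ZnSO4 24 h replicate 1, 2 or 3 (0.11 to 0.15, adjusted p 0.053 to 0.2), and ALDOA without DMSO 24 h replicate 1 or 2 or ZnSO4 24 h replicate 2 or 3 (0.12 to 0.13, adjusted p 0.074 to 0.11).

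GSK-J4 gave another pattern, in which a few stress-linked members rose strongly and most enzymes fell. At 1 h edgeR called 0 members, with 4 at an unadjusted p under 0.05 and 0 by DESeq2, beside 0.0346% of all genes higher and 0.0692% lower. Without DMSO 1 h replicate 1, DDIT4 was called higher (0.76, adjusted p = 0.004). At 3 h 6 members rose and 1 fell, beside 1.45% and 0.927%. At 6 h 7 rose and 17 fell, beside 9.83% and 10.5%, and at 24 h 3 rose and 20 fell, beside 15.2% and 16.8%. Enzymes made up 12 of those that fell at 6 h and 16 at 24 h, out of 17. Their median difference was −0.21 at 6 h and −0.40 at 24 h, against 0.011 and 0.022 over all genes tested. Most enzymes are abundant, and among the 3790 genes with an average log2 CPM of at least 6, which include 14 enzymes, 25.9% were lower at 6 h and 39.7% at 24 h. When each library was left out in turn, all 7 calls at 3 h, 15 of 24 at 6 h and 19 of 23 at 24 h held.

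VEGFA was raised by GSK-J4 at 3, 6 and 24 h. It had 132, 125 and 142 CPM with DMSO and 308, 297 and 291 with GSK-J4 at 3 h (log2 fold change 1.17 ± 0.06, adjusted p = 6.4e-25). The 6 h values were 145, 146 and 125 and 416, 428 and 426 CPM (log2 fold change 1.61 ± 0.06, adjusted p = 6.6e-33), and at 24 h 103, 99.6 and 95.9 and 207, 219.7 and 219.5 (log2 fold change 1.11 ± 0.06, adjusted p = 4.9e-23). The 2 groups were separated at each of the 3 times. DDIT4 rose from 104, 95.3 and 96.98 to 351, 334 and 324 CPM at 3 h (log2 fold change 1.77 ± 0.12, adjusted p = 4.8e-19) and from 96.9, 106 and 51.1 to 420.3, 436 and 458 at 6 h (log2 fold change 2.37 ± 0.12, adjusted p = 2e-25). At 24 h, on its low level in culture, it had 7.88, 5.81 and 8.76 CPM with DMSO and 15.8, 13.4 and 15.7 with GSK-J4 (log2 fold change 1.01 ± 0.28, adjusted p = 0.0033). DDIT4 libraries did not overlap at any of these times, which was a condition of naming the gene.

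EGLN1 and HIF1A were not called with GSK-J4. EGLN1 had 51.3, 45.8 and 44.9 CPM with DMSO and 56.02, 54.6 and 55.1 with GSK-J4 at 3 h (log2 fold change 0.22 ± 0.08, adjusted p = 0.15), which passed the test only when the fit held the compared groups alone (0.21, adjusted p = 0.044). At 6 h the difference of EGLN1 was −0.01 ± 0.08 and at 24 h −0.08 ± 0.08, neither of them called. HIF1A was not called at any time: its differences were 0.11 ± 0.07 at 3 h, 0.14 ± 0.07 at 6 h and −0.12 ± 0.06 at 24 h. At 24 h HIF1A had 217, 229 and 208 CPM with DMSO and 209.9, 199 and 193 with GSK-J4, and was called lower only in the fit of the compared groups alone (−0.12). P4HA2, PFKFB4 and P4HA1, which ZnSO4 raised, passed the test at no time with GSK-J4, with P4HA2 at 0.16 ± 0.20, 0.04 ± 0.21 and −0.04 ± 0.22 at 3, 6 and 24 h.

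With GSK-J4 the transporter SLC2A1 rose first and was lower later, and PDK1 rose at 3 and 6 h. SLC2A1 had 39.01, 37.4 and 37.7 CPM with DMSO and 54.8, 61.2 and 53.6 with GSK-J4 at 3 h (log2 fold change 0.57 ± 0.09, adjusted p = 1.5e-06). By 6 h it was lower, with 33.96, 35.1 and 45.3 and 30.3, 26.9 and 31.8 CPM (log2 fold change −0.36 ± 0.10, adjusted p = 0.0042), a call lost without DMSO 6 h replicate 3 (−0.22, adjusted p = 0.15) or GSK-J4 6 h replicate 2 (−0.30, adjusted p = 0.05). At 24 h it had 179, 173 and 183 CPM with DMSO and 119, 123 and 123 with GSK-J4 (log2 fold change −0.55 ± 0.07, adjusted p = 9.1e-10), again with no overlap. The lactate carrier SLC16A1 was lower at 3, 6 and 24 h (−0.22 ± 0.05, −0.55 ± 0.05 and −0.55 ± 0.05). PDK1 rose at 3 h from 49.3, 50.3 and 49.6 to 63.6, 68.3 and 67.2 CPM (log2 fold change 0.42 ± 0.08, adjusted p = 7.4e-05) and at 6 h from 46.9, 49.8 and 50 to 63.1, 69.9 and 62.3 (log2 fold change 0.42 ± 0.08, adjusted p = 3e-05). At 24 h it had 71.02, 75.1 and 73.4 and 73.2, 71.2 and 81.8 CPM, with overlap (log2 fold change 0.04 ± 0.07, adjusted p = 0.69).

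Further members split in direction at 6 h. BNIP3L rose (0.44 ± 0.09, adjusted p = 0.00013) and ANKRD37 went from 2.21, 1.21 and 1.74 to 3.29, 3.44 and 3.601 CPM (log2 fold change 0.97 ± 0.30, adjusted p = 0.016), a call lost without DMSO 6 h replicate 2 (0.79, adjusted p = 0.094) and with no filter on low counts. ADM, PFKFB3 and NDRG1 fell (−0.34 ± 0.08, adjusted p = 0.00061; −0.41 ± 0.11, adjusted p = 0.0033; −0.25 ± 0.06, adjusted p = 0.00044). BHLHE40 rose at 3 h (0.54 ± 0.11, adjusted p = 0.0011), was higher at 6 h (0.37 ± 0.12, adjusted p = 0.021) and was lower at 24 h (−0.24 ± 0.08, adjusted p = 0.02). The difference at 6 h did not pass without DMSO 6 h replicate 3 (0.31, adjusted p = 0.12) or GSK-J4 6 h replicate 1 (0.15, adjusted p = 0.5), nor that at 24 h without DMSO 24 h replicate 3 or GSK-J4 24 h replicate 2 or 3 (−0.23 to −0.20, adjusted p 0.06 to 0.1).

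HK2 was the sole enzyme called at 3 h of GSK-J4, and it rose before it fell. It had 113, 118 and 119 CPM with DMSO and 143, 157 and 147 with GSK-J4 at 3 h (log2 fold change 0.35 ± 0.07, adjusted p = 0.00022). By 6 h it had 102, 108 and 116.9 and 87, 93.7 and 95.1 CPM (log2 fold change −0.25 ± 0.07, adjusted p = 0.0081), a call lost without DMSO 6 h replicate 3 (−0.20, adjusted p = 0.081) or GSK-J4 6 h replicate 1 (−0.21, adjusted p = 0.071). At 24 h it fell from 186, 175 and 192 to 108, 116.8 and 113 CPM (log2 fold change −0.71 ± 0.07, adjusted p = 2.4e-13), the largest fall among the enzymes. The groups were separated at all 3 times.

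LDHA fell with GSK-J4 at both later times. At 6 h it had 1190, 1221 and 1349 CPM with DMSO and 1007, 968 and 946 with GSK-J4 (log2 fold change −0.36 ± 0.05, adjusted p = 1.2e-08), and at 24 h 1574, 1669 and 1701 and 1062, 1076 and 1021 (log2 fold change −0.65 ± 0.05, adjusted p = 1.7e-17). At 3 h LDHA had 1290, 1355 and 1320 and 1294, 1258 and 1314 CPM (log2 fold change −0.04 ± 0.05, adjusted p = 0.82), and did not pass. ALDOC, a second aldolase, had 38.7, 41.8 and 48.7 CPM with DMSO at 6 h and 34.3, 29.8 and 32.6 with GSK-J4 (log2 fold change −0.41 ± 0.10, adjusted p = 0.0016). PGAM1 had 107, 119 and 121 and 82.9, 78.3 and 71.3 CPM at 24 h (log2 fold change −0.57 ± 0.07, adjusted p = 2.5e-10). In each of these called pairs the libraries did not overlap, which for ALDOC and PGAM1 was a condition of being named. LDHB, TPI1, PFKP and GPI fell at 6 h and at 24 h, by 0.40 to 0.48 at 24 h.

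At 6 and 24 h ENO2 was the only enzyme to rise with GSK-J4. It had 24.99, 20.7 and 22.6 CPM with DMSO at 6 h and 29.2, 30.8 and 25.6 with GSK-J4 (log2 fold change 0.33 ± 0.12, adjusted p = 0.034), and at 24 h 14.5, 13.7 and 14.1 and 17.98, 16.9 and 20.5 CPM (log2 fold change 0.39 ± 0.14, adjusted p = 0.021). For ENO2 at 6 h the adjusted p was 0.11 with no filter on low counts and 0.05 with DESeq2, and the call was also lost without DMSO 6 h replicate 2 or 3 or GSK-J4 6 h replicate 1 or 2 (0.27 to 0.32, adjusted p 0.088 to 0.16). The call at 24 h was lost without DMSO 24 h replicate 2 or 3 or GSK-J4 24 h replicate 3 (0.30 to 0.38, adjusted p 0.051 to 0.15). At 6 h PGAM1 lost its call without DMSO 6 h replicate 1 or 2 or GSK-J4 6 h replicate 1 or 3 (−0.20 to −0.17, adjusted p 0.077 to 0.12), PFKM without DMSO 6 h replicate 3 or GSK-J4 6 h replicate 1 (−0.21 to −0.15, adjusted p 0.052 to 0.15), ENO1 without DMSO 6 h replicate 3 or GSK-J4 6 h replicate 2 (−0.13, adjusted p 0.051 to 0.06) and PKM without GSK-J4 6 h replicate 1 (−0.12, adjusted p = 0.068). At 24 h ALDOC lost its call without DMSO 24 h replicate 3 or GSK-J4 24 h replicate 2 (−0.27 to −0.22, adjusted p 0.071 to 0.15), and HK1 without GSK-J4 24 h replicate 2 (−0.44, adjusted p = 0.059). With library totals alone, the calls over all genes at 24 h went from 2205 higher and 2424 lower to 3256 and 1526, and at 6 h from 1422 and 1525 to 1791 and 1117. The member calls of ENO1, PFKM, PGAM1 and PKM at 6 h and of ALDOC, PKM and BHLHE40 at 24 h were then lost, and the enzymes' median stayed below 0 at both times (−0.17 and −0.31).

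**Figure D3:**
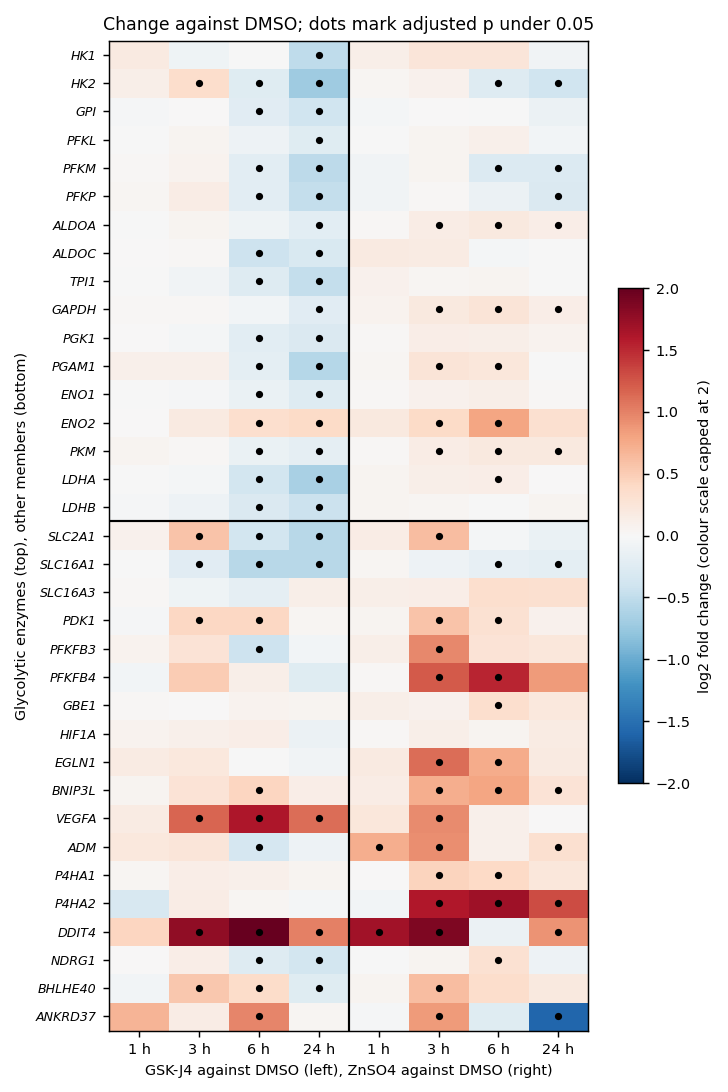
Log2 fold change against DMSO of the 35 tested members (rows, enzymes above the other members) at each time with GSK-J4 and ZnSO4 (columns). Colour is limited to 2 in either direction, which DDIT4 exceeds with GSK-J4 at 6 h (2.37), and dots mark adjusted p under 0.05; the enzymes are lower with GSK-J4 at 24 h except ENO2.

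**Figure D4:**
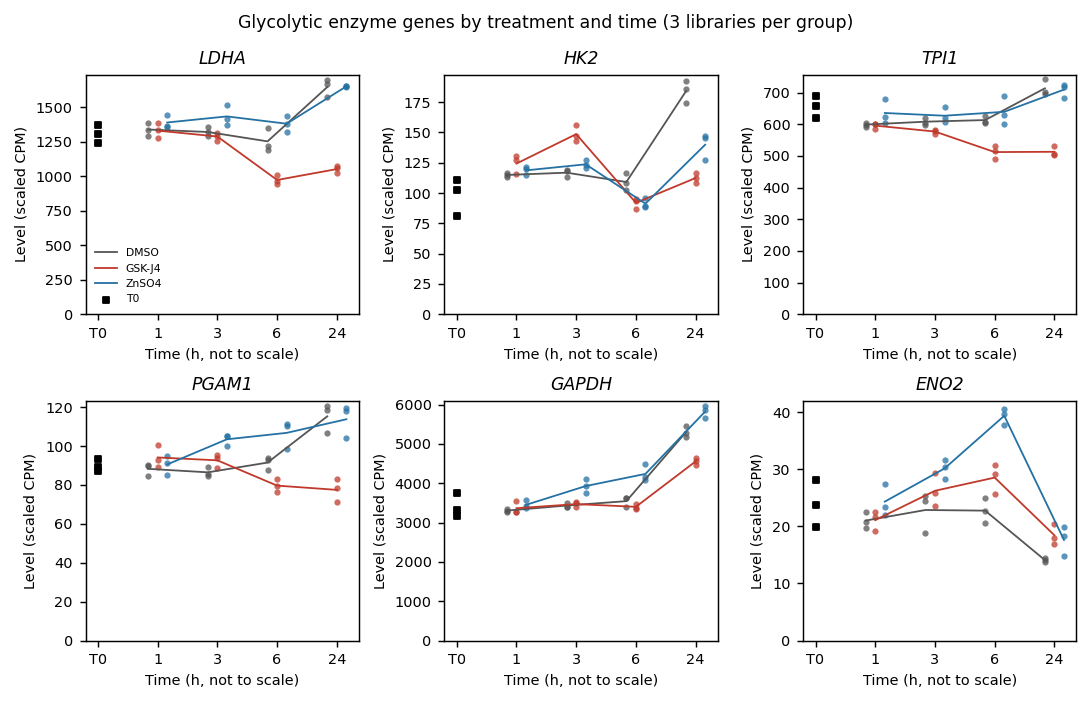
Scaled CPM of LDHA, HK2, TPI1, PGAM1, GAPDH and ENO2 in each library against time (black squares, T0). At 24 h the GSK-J4 libraries lie below DMSO for the first 5 enzymes and above it for ENO2.

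Expressed as a share of all counts, the 17 enzymes held 1.62% ± 0.025 (SD, n = 3) at T0. With DMSO the mean share was 1.61%, 1.61% and 1.62% at 1, 3 and 6 h and 1.73% at 24 h. With ZnSO4 it was 1.63%, 1.71%, 1.82% and 1.86% at 1, 3, 6 and 24 h, and with GSK-J4 1.63%, 1.63%, 1.5% and 1.51%. At 6 h the single libraries held 1.62%, 1.60% and 1.63% with DMSO, 1.78%, 1.87% and 1.79% with ZnSO4, and 1.495%, 1.49% and 1.52% with GSK-J4. ZnSO4 libraries therefore lay above and GSK-J4 libraries below DMSO at 6 h, and also at 24 h, with no overlap. A few abundant enzymes, GAPDH and ENO1 first, weigh most in this sum. After TMM scaling the means at 24 h were 1.97% with DMSO, 2.08% with ZnSO4 and 1.61% with GSK-J4, in the same order.

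**Figure D5:**
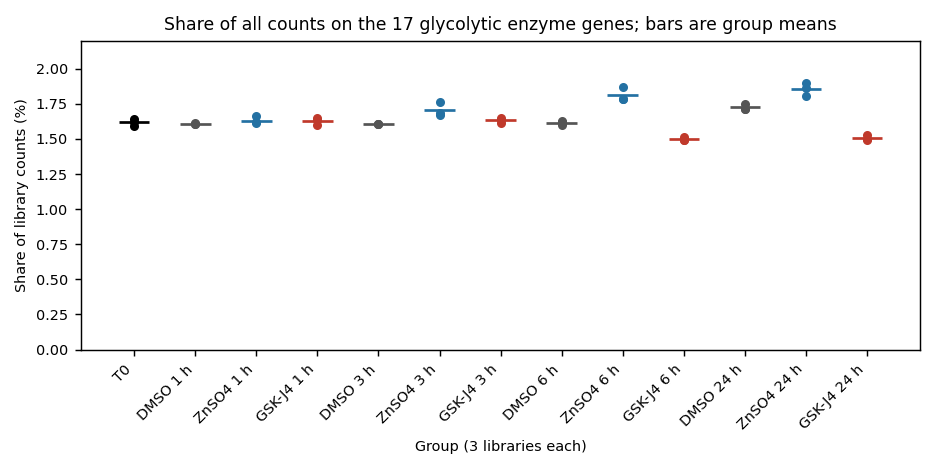
Percentage of all counts assigned to the 17 glycolytic enzymes in each library (points) with group means (bars), by agent and time. At 6 and 24 h ZnSO4 lies above DMSO and GSK-J4 below it, with means of 1.82% and 1.5% at 6 h against 1.62%.

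The comparisons of GSK-J4 and of ZnSO4 with vehicle share the DMSO libraries, so the agents were also compared directly at each time. At 1 h, 2 members were called, both lower with GSK-J4 than with ZnSO4, beside 0.138% of all genes higher and 0.526% lower. They were ADM (−0.51 ± 0.07, adjusted p = 2.1e-07) and DDIT4 (−1.25 ± 0.13, adjusted p = 3.9e-11). At 3 h, 2 were higher and 11 lower, beside 3.99% and 6.12%. Without ZnSO4 3 h replicate 2 the number called fell to 8, and the 4 enzymes that were lower, GAPDH, PGK1, PKM and LDHA, all lost the call. By 6 h, 3 were higher and 25 lower, beside 8.53% and 9.88%. At 24 h, 2 were higher and 24 lower, beside 12% and 12.5%. Among the 17 enzymes, 13 were called at 6 h and 15 at 24 h, all of them lower with GSK-J4. Leaving out each library in turn kept 7 of the 13 calls at 3 h, 24 of 28 at 6 h and 21 of 26 at 24 h.

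Genes differed in which agent gave the higher level. VEGFA was higher with GSK-J4 than with ZnSO4 at 3 h (0.23 ± 0.05, adjusted p = 0.0023), 6 h (1.51 ± 0.06, adjusted p = 4.6e-31) and 24 h (1.10 ± 0.07, adjusted p = 1.4e-21). DDIT4 was not called at 3 h (−0.09 ± 0.10, adjusted p = 0.68) and was higher with GSK-J4 at 6 h (2.50 ± 0.12, adjusted p = 7.9e-26). HK2 was higher with GSK-J4 at 3 h (0.27 ± 0.06, adjusted p = 0.0024) and lower at 24 h (−0.31 ± 0.07, adjusted p = 6e-04). VEGFA and HK2 were thus the 2 members higher with GSK-J4 at 3 h, and the other 11 called then were lower. P4HA2 was lower with GSK-J4 at 3, 6 and 24 h (−1.45 ± 0.16, −1.65 ± 0.17 and −1.34 ± 0.20). EGLN1 was lower at the same times (−0.90 ± 0.07, −0.76 ± 0.08 and −0.25 ± 0.09), although its call at 24 h was lost without ZnSO4 24 h replicate 2 (−0.21, adjusted p = 0.13) or GSK-J4 24 h replicate 1 (−0.18, adjusted p = 0.2). Both are hydroxylases, whereas LDHA is the enzyme that makes lactate. LDHA was lower at 6 h (−0.50 ± 0.05, adjusted p = 3e-13) and at 24 h (−0.65 ± 0.05, adjusted p = 1.8e-17). SLC2A1 did not differ beyond the spread at 3 h (−0.05 ± 0.08, adjusted p = 0.79), and PDK1 was not called at any time, with 0.11 ± 0.08 at 6 h.

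HIF1A was lower with GSK-J4 than with ZnSO4 at 24 h, with 209.9, 199 and 193 against 239.7, 262 and 231 CPM (log2 fold change −0.29 ± 0.06, adjusted p = 0.00022). At 1, 3 and 6 h HIF1A differed between the agents by 0.05 ± 0.07, −0.01 ± 0.06 and 0.08 ± 0.07, with no call. With library totals alone, the calls over all genes at 3 h went from 577 higher and 885 lower to 1270 and 638, and at 24 h from 1734 and 1812 to 2447 and 1229. Under that scaling 3 of the 13 member calls at 3 h and 6 of the 26 at 24 h were lost, and none of the 28 at 6 h. Under it, 4 called members changed sign, all of them in DMSO at 24 h against T0 (GPI, TPI1, PGK1 and PKM) and none still called.

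Whether an effect moved between times was tested as the difference of the differences. For GSK-J4, 2 members had a higher effect at 6 h than at 3 h and 9 a lower one, beside 1.75% and 1.92% of all genes. VEGFA and DDIT4 were the 2 that went further up, and SLC2A1, ADM and HK2 were among those that went down. The DDIT4 call was lost in several leave-one-out fits, and its difference was smallest without DMSO 6 h replicate 3 (0.34, adjusted p = 0.25). From 6 to 24 h, 9 effects were called and all went down, beside 2.72% of all genes up and 3.04% down. For ZnSO4, the 7 effects called between 3 and 6 h all went down, beside 0.622% up and 1.56% down. The 3 called between 6 and 24 h also went down, beside 0.111% and 0.297%. Over that interval the effect on DDIT4 was 1.02 in the other direction without being called (adjusted p = 0.23), and was called without DMSO 6 h replicate 3 (1.28, adjusted p = 0.007). DDIT4 had the largest called effect for ZnSO4, −1.99 ± 0.18 between 3 and 6 h. For P4HA2 with ZnSO4 the difference between times did not pass the test (0.09 ± 0.26, adjusted p = 0.94 and −0.39 ± 0.26, adjusted p = 0.73).

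Neighbouring pathways gave context from lists of related genes. Among 12 tested regulators of HIF other than the members, ZnSO4 changed 0 at 3 h and 0 at 6 h by edgeR, with 2 and 1 at an unadjusted p under 0.05 and 0 by DESeq2 at both times. At 24 h ZnSO4 lowered 1, beside 5.58% of all genes lower. GSK-J4 raised 3 and lowered 0 at 6 h, beside 9.83% and 10.5% of all genes. At 24 h it raised 1 and lowered 4 (2 and 2 with library totals alone), beside 15.2% and 16.8%. CITED2, which competes with HIF for the coactivator EP300, was lower at 24 h of GSK-J4 (−0.48 ± 0.08, adjusted p = 2.2e-06). CUL2, part of the ubiquitin ligase that removes HIF alpha subunits, was lower as well (−0.29 ± 0.07, adjusted p = 0.0018), and EP300 was higher at 6 h (0.29 ± 0.08, adjusted p = 0.0073; adjusted p = 0.069 without DMSO 6 h replicate 3).

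Of 24 further HIF-linked targets, ZnSO4 raised 7 and lowered 1 at 3 h, beside 6.59% and 4.16% of all genes. It raised 5 and lowered 2 at 6 h (3 and 3 by DESeq2), beside 4.81% and 4.51%. The 1 raised and 1 lowered at 24 h were near the shares of all genes, 3.98% and 5.58%. GSK-J4 raised 4 and lowered 0 at 3 h, beside 1.45% and 0.927%, and raised 6 and lowered 2 at 6 h, beside 9.83% and 10.5%. It raised 5 and lowered 7 at 24 h, beside 15.2% and 16.8%, so that the count raised was near the share of all genes. HMOX1, the haem oxygenase, which also answers to other stress signals, rose most with ZnSO4 at 3 h (4.78 ± 0.12, adjusted p = 2.2e-41). With GSK-J4, HMOX1 rose by less, at 3, 6 and 24 h (0.842, 0.798 and 1.055). STC2, a secreted glycoprotein also induced by endoplasmic reticulum stress, rose with GSK-J4 at 6 h (2.05 ± 0.07, adjusted p = 6.1e-33). With ZnSO4, STC2 was higher at 3 h (0.813, adjusted p = 2.8e-13) and lower at 6 h (−0.552, adjusted p = 4.1e-06). KDM3A, a histone demethylase and HIF target, rose with ZnSO4 at 3 h (0.89 ± 0.07, adjusted p = 1.8e-15) and with GSK-J4 at 3 h (0.58 ± 0.07, adjusted p = 2.7e-08).

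Of 26 genes of pyruvate entry and the tricarboxylic acid cycle, GSK-J4 raised 1 and lowered 3 at 6 h (1 and 0 with library totals alone), beside 9.83% and 10.5% of all genes. That count lowered was near the share of all genes. At 24 h GSK-J4 raised 1 and lowered 13 (2 and 6 with library totals alone), beside 15.2% and 16.8% of all genes. Among the abundant genes described above, 25.9% were lower at 6 h and 39.7% at 24 h. ZnSO4 lowered 2 at 6 h, beside 4.51% of all genes, and raised 1 and lowered 5 at 24 h, beside 3.98% and 5.58% (16.1% lower among the abundant genes). At 24 h the count raised was near the share of all genes, and that lowered near the share of the abundant ones. FH, the fumarase, and PDHB, a subunit of pyruvate dehydrogenase, were lower with GSK-J4 at 24 h (−0.41 ± 0.06, adjusted p = 2.2e-08; −0.49 ± 0.07, adjusted p = 5.1e-08). Over 24 h of vehicle 15 of these 26 rose and 3 fell, but 5 rose and 9 fell with library totals alone, beside 30.5% and 32.7% of all genes in the first case. Of 7 pentose phosphate genes, GSK-J4 lowered 2 at 6 h and 4 at 24 h, beside 10.5% and 16.8% of all genes. Among the abundant genes 25.9% and 39.7% were lower, so the count at 6 h was near that share. TKT was among those lower at 24 h (−0.48 ± 0.05, adjusted p = 1.7e-11). ZnSO4 lowered 2 at 6 h (1 with library totals alone), beside 4.51% of all genes and 12.7% of the abundant ones. It raised 1 at 24 h, PGD (0.16 ± 0.05, adjusted p = 0.039), beside 3.98% of all genes. The PGD call was lost in 7 of 10 alternative fits, including each that left out 1 library. Of 9 glycogen genes, GSK-J4 lowered 1 at 6 h, GYG1, the primer of glycogen (−0.41 ± 0.06, adjusted p = 9.2e-07), beside 10.5% of all genes. It raised 1 and lowered 3 at 24 h, beside 15.2% and 16.8% of all genes and 39.7% lower among the abundant ones. The count lowered at 6 h was near the share of all genes, and that at 24 h near the share of the abundant ones. ZnSO4 raised 1 at 3 h, beside 6.59% of all genes. It raised 2 and lowered 3 at 6 h (2 and 1 with library totals alone), beside 4.81% and 4.51%, and 12.7% lower among the abundant genes. Of 10 alternative fits, PYGL lost its lower call in 8, PGM2 in 6 and GYG1 in 4. It lowered 2 at 24 h, beside 5.58% of all genes and 16.1% of the abundant ones. Outside the members, 7 isoforms and regulators of glycolysis were tested. By edgeR, ZnSO4 gave 0 calls among them (2 at 24 h at an unadjusted p under 0.05, 0 by DESeq2). GSK-J4 gave 2 calls, both of regulators. TIGAR, a phosphatase of the same pathway, fell at 24 h (−0.44 ± 0.12, adjusted p = 0.0026), beside 16.8% of all genes lower. PFKFB2 rose at 6 h (0.41 ± 0.13, adjusted p = 0.017), a call lost in 3 of 10 alternative fits, beside 9.83% of all genes higher. Each count of 1 in 7 was near the share of all genes.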

How the data were processed

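RNA-seq of 39 JJN3 libraries was used as the gene counts that the authors deposited, 1 whole-number column per library. Reads were aligned with HISAT2 2.1.0 to hg19, per the submitters' processing notes; the counting tool, the annotation and the strand setting were not given in the sources used here. A symbol was found for 51996 of the 57773 Ensembl IDs, for 40 of 40 members and for 97 of 97 entries of the related lists. The members and lists were chosen with earlier results of these data known.

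Genes were filtered with filterByExpr (minimum count 10), scaled by TMM and tested with edgeR 4.0.16 (quasi-likelihood, limma 3.58.1, R 4.3.3) in 1 fit of all 13 groups, with 26 residual and 34.7 prior degrees of freedom and a common dispersion of 0.0023, a biological coefficient of variation of 4.8%. p-values were adjusted over all 14460 genes in each of 20 comparisons. The SE is the absolute log2 fold change divided by the square root of F. Genes were named by rule: in each comparison with DMSO, the 3 enzymes and 3 other members with the largest called differences, an average log2 CPM of at least 1 and no overlap between groups, and always HIF1A, EGLN1, EGLN3, VEGFA, HK2, LDHA, PDK1 and SLC2A1; from each related list, at most 3 genes with the smallest p; other members are named where a count or contrast turns on them, after their values were seen. Alternatives were DESeq2 1.42.0, its size factors in edgeR, library totals alone, no filter, only the groups compared, and leaving out each library. In a simulation of GSK-J4 against DMSO at 6 h over 12485 genes, 28.6% of 63 genes changed 1.2-fold were called, 83.8% of 68 at 1.5-fold and 89.6% of 67 at 2-fold, and 9 of 144 calls were false. The simulation fitted only the libraries of these groups. It changed far fewer genes than the 1422 higher and 1525 lower called there in the main fit. Its recovery is therefore not that of the main fit. Replicate libraries differed by more than sampling noise (chi-squared per gene 1.21 to 7.33), and none was a duplicate.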

Additional observations from a re-analysis of the deposited data

Results flagged for a closer look

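The effect against DMSO differed between successive times for 30 combinations of a member, an agent and an interval. This was edgeR's test of the difference itself, adjusted over all genes (adjusted p under 0.05). Values are the later log2 effect minus the earlier one. For GSK-J4 from 3 to 6 h, VEGFA (0.446) and DDIT4 (0.605) went further up. Going down were SLC2A1 (−0.936), PFKFB3 (−0.679), HK2 (−0.601), ADM (−0.578), NDRG1 (−0.391), PFKP (−0.357), SLC16A1 (−0.33), LDHA (−0.327) and GPI (−0.226). SLC2A1 and HK2 thereby passed from a rise at 3 h to a fall at 6 h.

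For GSK-J4 from 6 to 24 h, DDIT4 (−1.358), BHLHE40 (−0.611), VEGFA (−0.502) and PDK1 (−0.372) went down from a rise. The other falling effects were HK2 (−0.46), PGAM1 (−0.375), PFKM (−0.302), LDHA (−0.283) and PFKP (−0.265). For ZnSO4 from 3 to 6 h, DDIT4 (−1.985), VEGFA (−0.84), ADM (−0.838), PFKFB3 (−0.687), SLC2A1 (−0.658), EGLN1 (−0.368) and PFKM (−0.33) went down. From 6 to 24 h, EGLN1 (−0.571), BNIP3L (−0.524) and NDRG1 (−0.394) went down.

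Several of these calls were lost in at least 1 fit that left out a library. For PFKP with GSK-J4 from 6 to 24 h (adjusted p = 0.042 with all libraries), most such fits lost the call. Its effect in them stayed at −0.285 to −0.241. Leaving out 1 library at a time kept 9 of the 11 for GSK-J4 from 3 to 6 h (lost at least once: DDIT4, which was 0.34 with adjusted p = 0.25 without DMSO 6 h replicate 3, and GPI). It kept 5 of 9 from 6 to 24 h (lost: BHLHE40, PDK1, PFKM and PFKP), 5 of 7 for ZnSO4 from 3 to 6 h (lost: EGLN1 and PFKM) and 3 of 3 from 6 to 24 h.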

How the results depend on the processing

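No paired analysis was possible because the labels give no replicate numbers. The number of members called stayed within 1.5 times under each alternative run in 13 of the 20 comparisons; the exceptions follow, and their cause was not tested. With only the groups compared, GSK-J4 at 3 h called 14 members (7 with all groups) and its change from 3 to 6 h called 19 (11). With no filter on low counts, GSK-J4 at 1 h, DMSO at 1 h and DMSO at 3 h against T0 each called 1 (0), and DESeq2 called 3 for DMSO at 3 h. Leaving out 1 library gave 0 to 1 for GSK-J4 at 1 h, 0 to 2 for DMSO at 1 h (2 without T0 replicate 2), 0 to 3 for DMSO at 3 h (3 without T0 replicate 1), 0 to 1 for DMSO at 6 h and 8 to 13 for GSK-J4 against ZnSO4 at 3 h (13 with all libraries). For 51 pairs of a named gene and a comparison, the result of the test was the same in 280 of 306 leave-one-out fits, 25 calls were lost and 1 was gained, and no direction reversed. These pairs were called in the main fit or an alternative, and 30 pairs called in neither were left out. Many were named for their large called differences, which favours stable calls. Over all members, 15 of 24 calls for GSK-J4 at 6 h and 11 of 17 for ZnSO4 at 6 h held without each library. Among the 51 pairs DESeq2 lost 2 calls, no filter 4, DESeq2's size factors 1 and the fit of compared groups 1, while that last fit gained 4 and library totals 1. Depth limits members under about 1 CPM (EGLN3, BNIP3, SLC2A3, CA9 and ANGPTL4) and the lowly expressed ANKRD37 and PFKFB4.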
